A study of Homo sapiens with 16 samples.

Results

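Genes of the complement system and its regulators, 9 in all, were followed through U87 xenograft tumours: C1R, C1S, C4A, C4B, C3, CFB, SERPING1, CD55 and CD59. They were selected by gene symbol out of 17318 genes in the table of a first experiment and 18168 in that of a second, and all 9 were found in both tables. U87 is an established human glioblastoma cell line, here carrying luciferase and implanted in the brains of nude mice, which lack mature T cells, as the series text states for the first experiment. The 4 groups were tumours of mice given exosomes from MSC (the labels' abbreviation of the source) that carried siRNA 1 against human MYC (Myc1, n = 3), scramble siRNA 1 (Scr1, n = 4), siRNA 2 against human MYC (Myc2, n = 5) or scramble siRNA 2 (Scr2, n = 4). Every group therefore received exosomes with a siRNA, no group was left without exosomes, and the labels give the genotype as WT in all 16 libraries. In the first experiment 1e9 exosomes in 100 µl were injected into the retro-orbital sinus every other day from day 28, while the dosing of the second is not given in the sources read. Each library was made from the tumour of 1 mouse, taken at euthanasia rather than at a fixed day.

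Complement is a cascade of secreted proteins that tags cells and debris for removal. In the classical pathway the proteases C1r and C1s cleave C4, which then helps to activate C3, the protein on which all routes converge. In the alternative pathway factor B, made from CFB, joins activated C3 to form the enzyme that cleaves more C3. Host cells protect themselves with the C1 inhibitor (SERPING1), which inactivates C1r and C1s, with CD55, which takes the C3-cleaving enzymes apart, and with CD59, which blocks the membrane attack complex. In the brain, astrocytes, microglia and glioma cells are all known to make complement proteins, and interleukin 1, interleukin 6 and interferons are known to induce several of them.

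The members were chosen with the difference between Myc1 and Scr1 known, so that difference is given as a description with no test. The tumours labelled Myc2 and Scr2 came from other mice and were tested. The members, gene lists and tests were chosen with earlier results of these data known. The p-values of the second experiment are therefore not shown to be free of that choice. Levels are in CPM (read counts scaled to a common library size), quantile-normalized by the authors within each table, so levels were not compared between the tables. Estimated sizes were 15.2 to 31.0 M reads in 14 libraries, 3.36 M in Scr1 replicate 3 and 10.1 M in Scr2 replicate 4. Scr2 replicates 1 and 4 lay at 63.4 and 94.4 on the first principal component of the second table, which held 43.8% of its variance, and the other 7 libraries of that table lay between -47.6 and -2.74. MYC, the siRNA target, stood at 38.1, 26.5 and 14.3 CPM in Myc1 and at 21.2, 30.2, 50.7 and 108 CPM in Scr1. It stood at 55.3, 57.5, 47.0, 72.1 and 42.3 CPM in the libraries labelled Myc2 and at 40.2, 35.3, 47.1 and 25.9 CPM in those labelled Scr2, a log2 difference of 0.57 ± 0.21 (SE). This direction goes against the label of the second experiment.

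The 6 secreted components C1R, C1S, C4A, C4B, C3 and CFB had higher mean levels in Myc1 than in Scr1 and in the libraries labelled Myc2 than in those labelled Scr2. C3 had the largest difference of the 8 genes fitted, 8.05-fold in the first experiment and 8.01-fold in the second. In the second this rank did not hold without Scr2 replicate 3, where C3 differed by 1.71 log2 units and C4B by 3.12. The membrane regulators CD55 and CD59 lay within 0.37 log2 units of their scramble groups in both experiments. SERPING1 stayed below 1 CPM in every library. No member passed limma's test adjusted over all genes in the second experiment, where the differences of the 6 components had unadjusted p under 0.05.

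**Figure D1:**
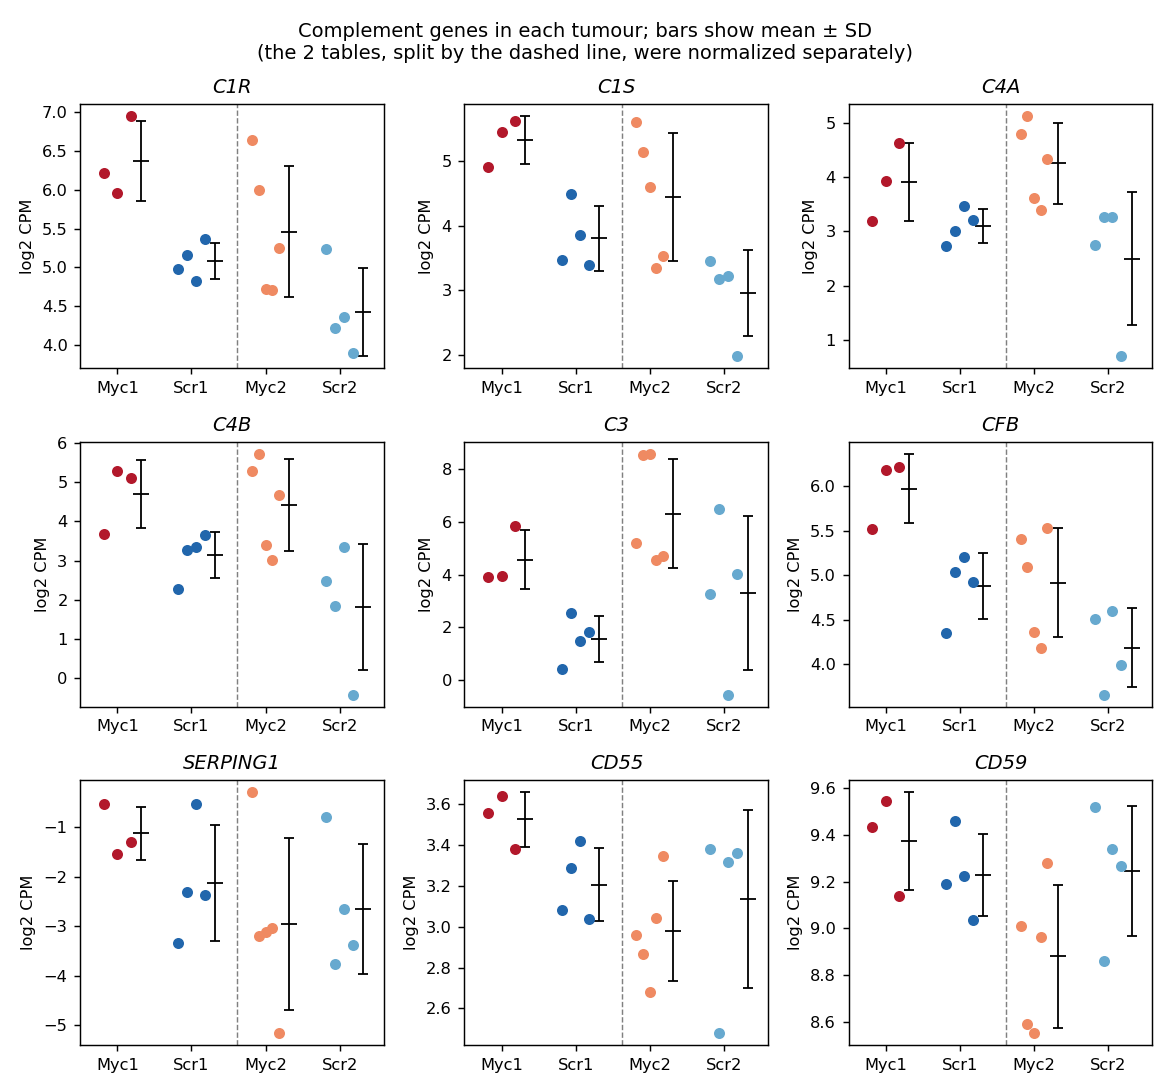
Levels of the 9 complement genes in each tumour (points, log2 CPM on the vertical axis) by group, with mean ± SD beside the points; the dashed line separates the tables, which were normalized separately. All Myc1 points lie above all Scr1 points for C1R, C1S, C4B, C3 and CFB, and all points labelled Myc2 lie above all those labelled Scr2 for C4A only.

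The proteases of the classical pathway are C1R and C1S. C1R, at chr12:7080199-7092607 on the reverse strand (GRCh38, GENCODE 29), held 74.1, 62.4 and 124 CPM in Myc1 and 31.4, 35.9, 28.4 and 41.1 CPM in Scr1. The lowest Myc1 tumour was above the highest Scr1 tumour, and the log2 difference was 1.29 ± 0.26 (SE), or 2.45-fold. In the second experiment C1R held 99.5, 63.6, 26.4, 26.1 and 38.1 CPM in the libraries labelled Myc2 and 37.6, 18.6, 20.5 and 14.9 CPM in those labelled Scr2. Replicates 1 and 2 of Myc2 were well above every Scr2 library, while replicates 3 and 4 lay below Scr2 replicate 1. The log2 difference was 1.04 with a 95% interval of 0.14 to 1.93 (limma adjusted p = 0.370; exact two-sided permutation p = 0.0794).

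C1S, at chr12:6988259-7071032 on the forward strand, encodes the protease that C1r activates. It held 30.2, 44.1 and 49.5 CPM in Myc1 and 11.1, 22.6, 14.5 and 10.6 CPM in Scr1, with no overlap and a log2 difference of 1.53 ± 0.31 (SE). It held 49.0, 35.3, 24.2, 10.2 and 11.5 CPM in the libraries labelled Myc2 and 11.0, 9.03, 9.30 and 3.93 CPM in those labelled Scr2. Here 4 of the 5 Myc2 libraries were above all Scr2 libraries, and Myc2 replicate 4 was not. The log2 difference was 1.49, with a 95% interval of 0.44 to 2.54 (limma adjusted p = 0.370; exact permutation p = 0.0556).

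C4A and C4B encode the 2 forms of C4, the substrate of C1s, and lie next to each other at chr6:31982024-32002681 and chr6:32014795-32035418. Their coding sequences in GENCODE 29 are both 5235 bases long and are 99.8% identical, with 13 differing bases. Of the 5161 windows of 75 bases in the coding sequence of C4A, 90.7% also occurred in that of C4B, so reads from one gene can have been counted for the other and the split between them is uncertain. The stretch with most differences codes for the residues that set the 2 forms apart, and is printed for coding bases 3338 to 3397 with the differing bases in capitals.
C4A: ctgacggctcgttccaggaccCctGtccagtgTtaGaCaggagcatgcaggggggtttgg
C4B: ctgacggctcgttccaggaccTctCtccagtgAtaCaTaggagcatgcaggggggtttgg

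C4A held 9.14, 15.2 and 24.7 CPM in Myc1 and 6.64, 8.0, 11.0 and 9.29 CPM in Scr1, so Myc1 replicate 1 lay among the Scr1 tumours. Its log2 difference there was 0.81 ± 0.35 (SE), the smallest of the 6 components. In the second experiment it held 27.7, 35.1, 12.3, 10.5 and 20.3 CPM in the libraries labelled Myc2 and 6.75, 9.61, 9.61 and 1.63 CPM in those labelled Scr2. All 5 Myc2 libraries were above all 4 Scr2 libraries, with a log2 difference of 1.76 and a 95% interval of 0.58 to 2.94 (limma adjusted p = 0.370; exact permutation p = 0.0159, or 0.432 adjusted over all genes tested). Without Scr2 replicate 4, where C4A was lowest, the log2 difference was 1.16, and without Scr2 replicates 1 and 4 it was 0.99.

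C4B held 12.9, 38.6 and 34.2 CPM in Myc1 and 4.88, 9.72, 10.1 and 12.5 CPM in Scr1, a log2 difference of 1.55 ± 0.41 (SE) with the lowest Myc1 tumour just above the highest Scr1 tumour. It held 39.1, 52.6, 10.5, 8.07 and 25.5 CPM in the libraries labelled Myc2 and 5.58, 3.56, 10.1 and 0.749 CPM in those labelled Scr2. Of the Myc2 libraries, only replicate 4 lay below the highest Scr2 library. The log2 difference was 2.61, with a 95% interval of 0.98 to 4.24 (limma adjusted p = 0.370; exact permutation p = 0.0317). Without Scr2 replicate 4 it was 1.87.

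C3, at chr19:6677704-6730562 on the reverse strand, encodes the central component. It held 14.9, 15.4 and 57.9 CPM in Myc1 and 1.32, 5.77, 2.78 and 3.53 CPM in Scr1, with no overlap and a log2 difference of 3.01 ± 0.56 (SE). In the second experiment it held 37.0, 370, 386, 23.4 and 25.9 CPM in the libraries labelled Myc2 and 9.71, 91.1, 0.680 and 16.2 CPM in those labelled Scr2. The groups overlapped: Scr2 replicate 2 held more C3 than 3 of the Myc2 libraries, and Scr2 replicate 3 held the least. The log2 difference of 3.00 therefore had a wide 95% interval of 0.14 to 5.86 (limma adjusted p = 0.370; exact permutation p = 0.127). It was 1.71 without Scr2 replicate 3 and 4.07 without Scr2 replicate 2. From the lowest to the highest library, C3 spanned 43.7-fold in the first experiment and 567-fold in the second, the widest span of the 9 genes in each.

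CFB, at chr6:31945650-31952084 on the forward strand, encodes factor B. It held 46.0, 72.8 and 74.1 CPM in Myc1 and 20.4, 33.0, 36.9 and 30.4 CPM in Scr1, a log2 difference of 1.09 ± 0.27 (SE) with no overlap. It held 42.5, 34.1, 20.6, 18.2 and 46.3 CPM in the libraries labelled Myc2 and 22.8, 12.6, 24.2 and 15.9 CPM in those labelled Scr2. Myc2 replicates 1, 2 and 5 were above every Scr2 library, and replicates 3 and 4 lay among them. The log2 difference was 0.73, with a 95% interval of 0.032 to 1.42 (limma adjusted p = 0.370; exact permutation p = 0.103). The symbol CFB also stands on a second row, which reached 1.10 CPM at most and was not used.

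The inhibitors are given next. SERPING1, at chr11:57597387-57614853, held 0.699, 0.344 and 0.406 CPM in Myc1 and 0.0984, 0.203, 0.694 and 0.195 CPM in Scr1. It held 0.820, 0.108, 0.116, 0.122 and 0.0279 CPM in the libraries labelled Myc2 and 0.577, 0.0735, 0.158 and 0.0958 CPM in those labelled Scr2. The groups overlapped in both experiments, and the gene did not pass the filter of at least 1 CPM in as many libraries as the smaller group had, so no difference was fitted.

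CD55, at chr1:207321376-207386804, held 11.7, 12.4 and 10.4 CPM in Myc1 and 8.45, 9.76, 10.7 and 8.20 CPM in Scr1, a log2 difference of 0.32 ± 0.28 (SE). It held 7.79, 7.28, 6.40, 8.23 and 10.2 CPM in the libraries labelled Myc2 and 10.4, 5.58, 9.97 and 10.3 CPM in those labelled Scr2. The log2 difference was -0.16, with a 95% interval of -0.71 to 0.40 (limma adjusted p = 0.749; exact permutation p = 0.508), and was 0.079 without Scr2 replicates 1 and 4. The interval excludes a change as large as that estimated for any of the 6 components.

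CD59, at chr11:33703010-33736491, was the most abundant member. It held 691, 748 and 564 CPM in Myc1 and 584, 704, 598 and 525 CPM in Scr1, a log2 difference of 0.15 ± 0.20 (SE). It held 515, 386, 375, 499 and 622 CPM in the libraries labelled Myc2 and 734, 464, 648 and 615 CPM in those labelled Scr2. The log2 difference was -0.37, with a 95% interval of -0.81 to 0.078 (limma adjusted p = 0.391; exact permutation p = 0.119). Without Myc2 replicate 5 or without Scr2 replicate 2, CD59 was lower in Myc2 at an unadjusted p under 0.05. Across libraries it spanned 1.43-fold in the first experiment and 1.96-fold in the second.

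**Figure D2:**
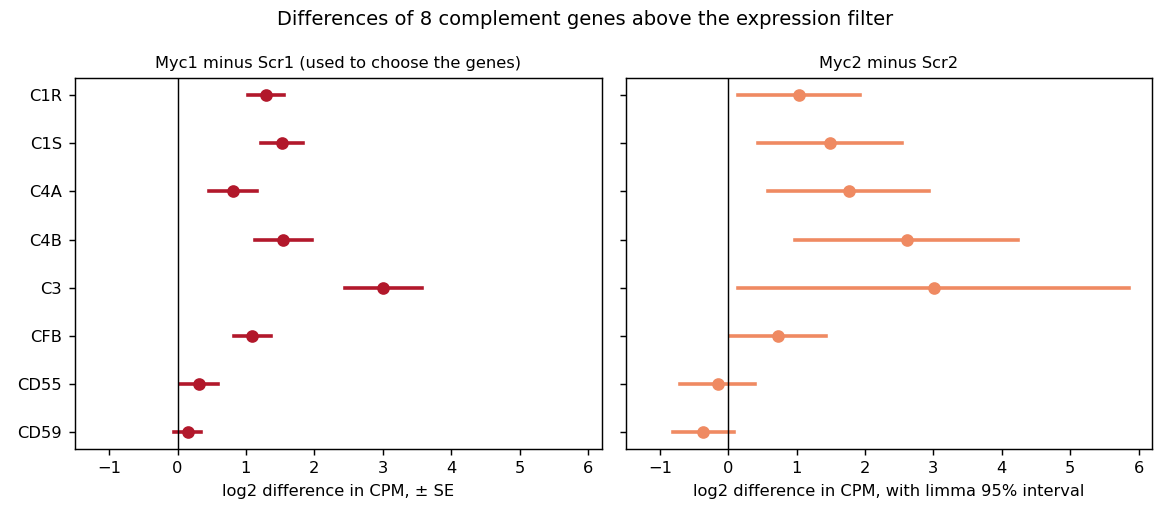
Log2 differences in CPM of the 8 members above the expression filter, Myc1 minus Scr1 with standard errors (left, a description) and Myc2 minus Scr2 with 95% intervals from limma (right). The 6 secreted components lie to the right of 0 in both panels, at 0.81 to 3.01 and at 0.73 to 3.00, while CD55 and CD59 lie close to 0.

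Of the 9 members, 8 passed the expression filter in each table. Between Myc1 and Scr1, 5 of these 8 did not overlap between groups with Myc1 higher, and among all 13933 genes tested 1.94% did so. In the second, 1 of the 8, C4A, did not overlap with Myc2 higher, against 1.40% of the 14208 genes tested. There 6 of the 8 were higher at an unadjusted p under 0.05 by limma, against 7.0% of all genes, and 2, C4A and C4B, had an unadjusted exact permutation p under 0.05. Mean levels were higher in Myc1 for 8 of the 8, against 49.5% of genes, and in Myc2 for 6 of the 8, against 48.2% of genes. In the second experiment the median difference of the 8 was 1.26 log2 units, and that of all genes tested was -0.018. After Benjamini-Hochberg adjustment limma called 0 of the 8 and 0% of all genes (smallest adjusted p = 0.370), and the permutation test called 0 of all genes. At an unadjusted p under 0.05 limma gave 1898 genes and the permutation test 1503. The 8 genes were measured in the same tumours and C4A and C4B share reads, so they are not independent counts. The count of 6 was 3 (C1S, C4A and C4B) without Myc2 replicate 2 or without Scr2 replicate 4, and 2 (C1R and C4A) without Scr2 replicates 1 and 4, although all 6 components stayed higher in each case.

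Within each experiment a few tumours ranked high for most components. Myc1 replicate 3 had the highest level of 5 of the 6 components, and Scr1 replicate 1 had the lowest level of 4. In the second, Myc2 replicates 1 and 2 each ranked among the top 2 of 9 libraries for 5 of the 6 components, and Scr2 replicate 4 was lowest for 4 of them. Scr2 replicate 4 was also the shallowest library of its table. Myc2 replicate 3 stood 3.61 log2 units above the table's mean for C3 but 0.28 below it for C1R and 0.23 below it for CFB. Myc2 replicate 5 showed the reverse, 0.28 below the mean for C3 and 0.94 above it for CFB and 1.42 above it for C4B. Myc2 replicate 4 was below the mean for all 6 components.

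**Figure D3:**
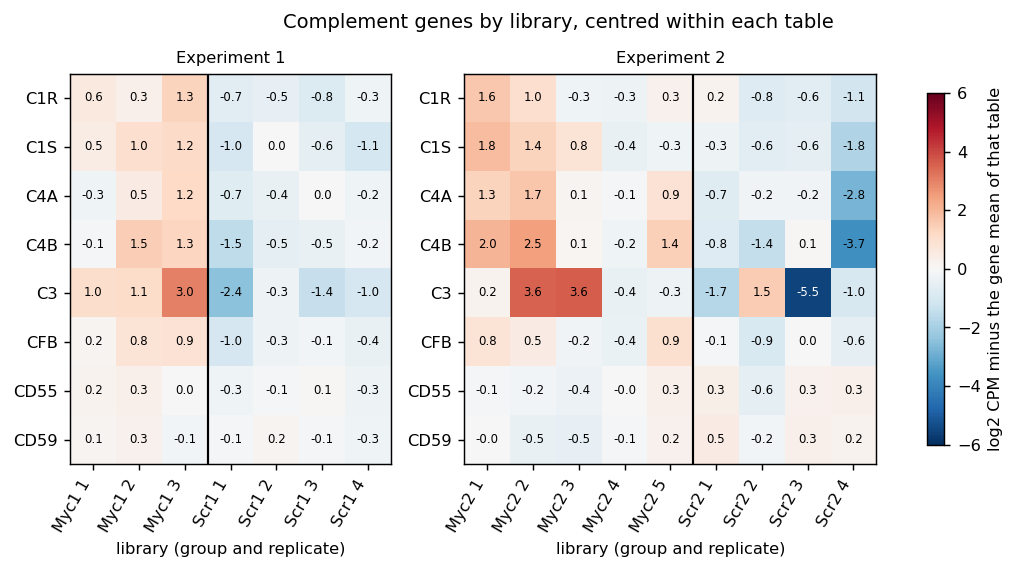
Log2 CPM of 8 complement genes in each library (columns, with the black line between the MYC siRNA and scramble libraries) after subtracting each gene's mean over its table; numbers give the values drawn. The components are above their mean together in Myc1 replicates 2 and 3 and in Myc2 replicates 1 and 2, while in Myc2 replicate 3 C3 stands 3.61 above its mean and C1R and CFB stand below theirs.

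Likeness to C3 was measured as the root mean square difference between profiles centred on their mean, the larger of the values from the 2 tables, over the 7 and the 9 libraries. A gene with no variation would differ from C3 by 1.71 log2 units in the first table and 2.64 in the second. Among 13614 genes tested in both tables the most alike were IGFBP4, which binds insulin-like growth factors, at 1.33, PTPRF, a receptor phosphatase, at 1.52, STC2, a secreted glycoprotein, at 1.52, the ion channel ASIC1 at 1.55, the adenosine receptor ADORA1 at 1.57 and the calcium-binding CALB2 at 1.59. Among the members C1S ranked highest, at position 222 with 2.29, followed by C4A at 987 with 2.45, C1R at 2016 with 2.52, CFB at 7465 with 2.70 and C4B at 9067 with 2.75. In the second table CFB and C4B thus lay further from C3 than a gene with no variation would. In the first table alone the components lay between 0.97 (C1S) and 1.25 (C4A) from C3. The 6 genes most alike lay there between 0.99 (STC2) and 1.59 (CALB2), the latter little below the 1.71 of a gene with no variation. PTPRF, at 1.52 there, was also little below it. Both PTPRF and STC2 were near the floor in the first table. PTPRF held 0.626 to 1.24 CPM in Myc1 and 0.432 to 1.01 CPM in Scr1, and STC2 1.02 to 2.58 and 0.0333 to 1.23 CPM.

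Expressed per kilobase of exon in GENCODE 29, CD59 was the most abundant member in each group, at a geometric mean of 64.0 CPM per kb in Myc1, 57.9 in Scr1, 45.5 in Myc2 and 58.6 in Scr2. C1R, at 14.1 CPM per kb in Myc1, 5.76 in Scr1, 7.49 in Myc2 and 3.65 in Scr2, and CFB, at 12.6, 5.90, 6.04 and 3.65 CPM per kb in the same groups, did not differ from each other beyond their spread. C3 changed its place most: at 2.84 CPM per kb in Myc1 and 0.353 in Scr1 it stood below C1S (6.25 and 2.17 CPM per kb in those groups), whereas in Myc2 it averaged 9.56 CPM per kb against 3.37 for C1S. C4A, C4B and CD55 lay between 0.488 and 3.59 CPM per kb, in an order that differed between groups, and SERPING1 was lowest in each group at 0.128 or less. The sources read here give neither the strand nor the counting tool, and several members overlap other genes: C3 overlaps GPR108, C1S overlaps EMG1 and LPCAT3, C1R overlaps C1RL, C4A overlaps STK19 and an antisense gene, and CFB overlaps C2. Reads in these overlaps cannot be assigned to 1 gene.

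Promoter sequences from RefSeq (GRCh38.p14) were matched for 4 members, CFB, C1R, CD55 and CD59. Those of CFB and C1R are shown because both components had higher means in Myc1 and in the libraries labelled Myc2. The 250 bases before the transcription start were searched on both strands for letters of factors known to induce complement genes: GGG and CC with any 5 bases between them for NF-kB, TTNNGNAA for C/EBP factors, TTCNNNGAA for the STAT site GAS, GAAA and GAAA with any 2 bases between them for the interferon element ISRE, CACGTG for the E-box bound by MYC, and TATAAA. Capitals mark the matches.
CFB, chr6:31945845-31946094, forward strand: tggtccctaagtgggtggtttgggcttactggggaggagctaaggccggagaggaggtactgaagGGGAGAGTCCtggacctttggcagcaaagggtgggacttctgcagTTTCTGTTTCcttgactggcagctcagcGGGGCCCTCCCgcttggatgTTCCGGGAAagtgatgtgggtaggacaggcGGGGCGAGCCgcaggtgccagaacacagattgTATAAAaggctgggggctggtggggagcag
C1R, chr12:7092446-7092695, reverse strand: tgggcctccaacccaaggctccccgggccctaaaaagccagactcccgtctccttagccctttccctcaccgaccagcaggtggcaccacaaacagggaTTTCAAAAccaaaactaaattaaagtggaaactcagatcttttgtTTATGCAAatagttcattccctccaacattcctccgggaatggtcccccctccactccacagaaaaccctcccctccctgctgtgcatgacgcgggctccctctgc

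The CFB window held TTCCGGGAA, which has the GAS letters, at positions -92 to -84 from the start, an ISRE match on the reverse strand at -140 to -131, TATAAA at -30 to -25 and 4 matches to the NF-kB letters, of which GGGGCCCTCC and GGGCCCTCCC overlap. Of 35116 RefSeq promoter windows of this length 6.57% held the GAS letters, 3.02% the ISRE letters, 10.7% TATAAA and 54.4% the NF-kB letters. The C1R window held 2 matches to the C/EBP letters, TTTCAAAA and TTATGCAA, which 33.2% of windows held at least once. CACGTG, found in 6.34% of windows, was not among the letters of either one. A match describes the sequence and does not show that a factor bound it. RefSeq gives a further start for C1R, whose window is not printed and held NF-kB, C/EBP and GAS letters. Windows of the membrane regulators held such letters too: that of CD55 had an NF-kB match, and those of the 4 starts of CD59 had NF-kB, C/EBP and GAS matches.

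The rest of the complement system was covered by a list of 52 further genes, of which 17 passed the filter in each table. Of the 17, 13 had higher means in Myc1 and 4 lower, with a median log2 difference of 0.21 against -0.0027 over all gene symbols tested. In the second 12 had higher means in Myc2 and 5 lower, with a median of 0.32 against -0.018, and 0 passed limma's adjusted test. There 3 were higher at an unadjusted p under 0.05 by limma (C1RL, THBD and ITGAX), against 7.0% of all genes, of which 48.2% had higher means. C1q, the recognition part of C1, and the late components C6, C8A, C8B and C9 were not analysed here.

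Among further components, C1RL, a protease related to C1r, was at 4.88 log2 CPM in the libraries labelled Myc2 and at 3.92 in those labelled Scr2, a log2 difference of 0.96 ± 0.28 (SE) with no overlap (limma adjusted p = 0.370; exact permutation p = 0.0159). It overlaps C1R, and in the first experiment it differed by 0.35 ± 0.28. C2, the partner of C4 and neighbour of CFB, differed by 0.71 ± 0.40 in the first experiment and by -0.053 ± 0.59 in the second. C5, which is cleaved downstream of C3, differed by 1.10 ± 0.38 in the first and by 0.19 ± 0.39 in the second. C7, of the membrane attack complex, differed by 2.89 ± 0.79 in the first experiment and was below the filter in the second. In the first it held 1.82 to 17.0 CPM in Myc1 and 0.411 to 2.14 CPM in Scr1, near the floor and with overlap. In the second its mean was lower in Myc2, at -2.40 log2 CPM, than in Scr2, at -0.83. MASP2, the lectin pathway protease, differed by 0.40 ± 0.74 and 0.62 ± 0.47, and CFP (properdin) by -0.54 ± 0.64 and -0.57 ± 0.33, in the first and second experiment in that order. Single libraries set the direction of some: MASP2 was at -0.32 without Scr1 replicate 3, C2 at 0.16 without Myc2 replicate 4 and C5 at -0.017 without Myc2 replicate 5.

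Values of further regulators varied by gene. The membrane cofactor CD46 differed by -0.073 ± 0.24 in the first experiment and 0.36 ± 0.21 in the second. Factor I (CFI) differed by 0.75 ± 0.43 in the first and 0.28 ± 0.49 in the second, clusterin (CLU) by 0.13 ± 0.22 and 0.52 ± 0.31, and PROS1 by 0.20 ± 0.29 and 0.24 ± 0.33. CSMD2 differed by 0.0024 ± 0.26 and 0.84 ± 0.40, and CSMD3 by 0.068 ± 0.88 and -0.27 ± 0.70. Thrombomodulin (THBD) differed by 0.61 ± 0.53 in the first and 0.94 ± 0.38 in the second, where it averaged 1.22 log2 CPM in Myc2 and 0.29 in Scr2. With 1 library left out, the direction of CLU, PROS1, CD46, CSMD2 and CSMD3 turned in the first experiment (CSMD3 was at -0.79 without Scr1 replicate 3), and that of PROS1 and CSMD3 in the second.

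The receptors of complement fragments gave no common direction. C3AR1, the receptor of C3a, differed by -0.20 ± 0.36 in the first experiment and -0.23 ± 0.27 in the second, and C5AR1, the receptor of C5a, by -0.38 ± 0.49 and 0.32 ± 0.46. ITGAX, a chain of complement receptor CR4, differed by 0.21 ± 0.77 in the first and 1.84 ± 0.72 in the second (limma adjusted p = 0.370). Its partner chain ITGB2 differed by 1.37 ± 1.49 in the second and was not analysed in the first; without Scr2 replicate 3 it differed by 0.063. C1QBP, a C1q-binding protein, differed by 0.23 ± 0.20 and -0.16 ± 0.21. In the first experiment C5AR1 was at 0.26 without Myc1 replicate 3 and ITGAX at -0.63 without Myc1 replicate 2, and in the second C5AR1 was at -0.038 without Myc2 replicate 3.

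**Figure D4:**
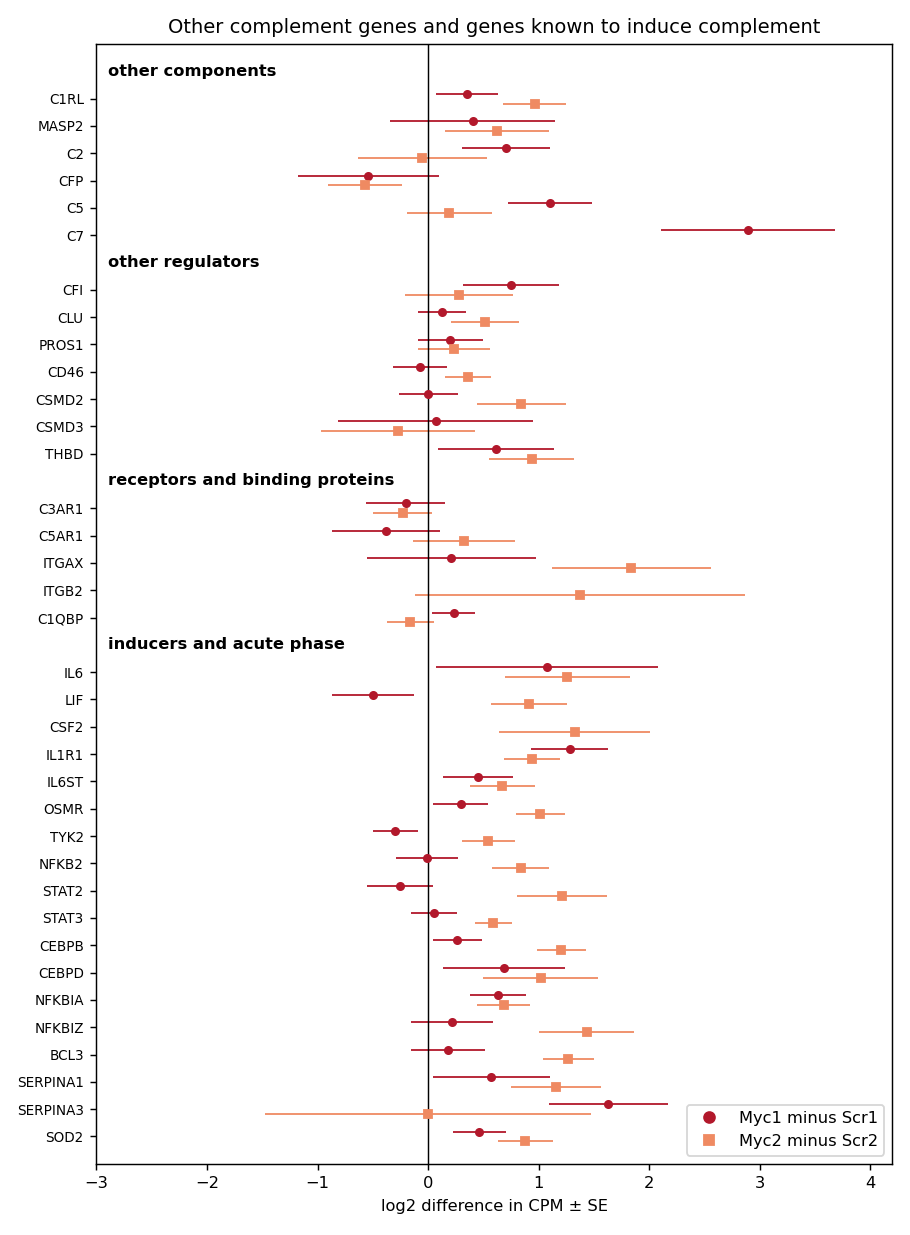
Log2 differences in CPM ± SE for complement genes outside the 9 members and for genes known to induce complement, Myc1 minus Scr1 (circles) and Myc2 minus Scr2 (squares); a missing symbol means that the gene was below the filter or not analysed. Among transcription factors the squares lie to the right of the circles for CEBPB (1.21 and 0.26), BCL3 (1.27 and 0.18) and STAT3 (0.59 and 0.055).

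The signals known to induce complement were read from 3 lists. Of the ligands, 3 passed the filter in the first experiment (median log2 difference 0.64) and 4 in the second (median 1.09). IL6 differed by 1.07 ± 1.00 in the first and 1.26 ± 0.56 in the second, LIF, a relative of interleukin 6, by -0.50 ± 0.37 and 0.91 ± 0.34, and CSF2 by 1.32 ± 0.69 in the second only. Without Myc1 replicate 3, IL6 differed by 0.011 in the first experiment. IL1A, IL1B and TNF were below the filter in both tables. Of 14 receptors and kinases, 11 had higher means in each experiment, with medians of 0.14 and 0.30.

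IL1R1, the receptor of interleukin 1, was the inducer gene whose groups did not overlap in either experiment. Of the 14 receptors and kinases, 1 had no overlap and was higher in each experiment. Among all genes tested, 1.94% in the first and 1.40% in the second did so. IL1R1 averaged 6.28 ± 0.28 log2 CPM in Myc1 and 5.0 ± 0.75 in Scr1 (SD, n = 3 and 4). The separation there was narrow: the lowest Myc1 library, replicate 2, was at 6.11 log2 CPM and Scr1 replicate 2 at 6.07. It averaged 6.0 ± 0.51 in the libraries labelled Myc2 and 5.06 ± 0.25 in those labelled Scr2 (SD, n = 5 and 4). The log2 difference in the second experiment was 0.94 ± 0.25 (SE; limma adjusted p = 0.370; exact permutation p = 0.0238). OSMR, the receptor of oncostatin M, differed by 0.30 ± 0.25 in the first and 1.01 ± 0.22 in the second, IL6ST, the shared chain of the interleukin 6 receptors, by 0.45 ± 0.32 and 0.67 ± 0.29, and the kinase TYK2 by -0.30 ± 0.21 and 0.54 ± 0.24.

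Of the 16 transcription factors and feedback genes that passed the filter, 9 had higher means in Myc1, with a median log2 difference of 0.040. In the second experiment 15 had higher means in the libraries labelled Myc2, with a median of 0.73, and 7 were higher at an unadjusted p under 0.05; over all genes 48.2% had higher means and 7.0% were higher at that p. None of them passed limma's adjusted test there. CEBPB, a C/EBP factor of the acute phase response, stood at 6.47 ± 0.13 log2 CPM in Myc2 and 5.27 ± 0.51 in Scr2 (SD, n = 5 and 4), with no overlap. Its log2 difference was 1.21 ± 0.22 (SE; exact permutation p = 0.00794, the smallest that the design allows) in the second experiment and 0.26 ± 0.22 in the first. Without Scr2 replicates 1 and 4 it was 1.53, with limma adjusted p = 0.0240. STAT3, BCL3, a partner of NF-kB, and NFKBIZ differed by 0.59 ± 0.17, 1.27 ± 0.23 and 1.43 ± 0.43 in the second, and by 0.055 ± 0.21, 0.18 ± 0.33 and 0.22 ± 0.37 in the first. NFKBIA, a feedback inhibitor of NF-kB, differed by 0.63 ± 0.26 in the first and 0.68 ± 0.24 in the second, NFKB2 by -0.012 ± 0.28 and 0.84 ± 0.26, STAT2 by -0.25 ± 0.30 and 1.21 ± 0.41, and CEBPD by 0.69 ± 0.55 and 1.02 ± 0.52. The direction of STAT3, BCL3, NFKBIZ and NFKB2 in the first experiment turned with 1 library left out.

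Acute phase genes, which the liver is known to induce together with C3 and CFB, were mostly not analysed here. Of 21 listed, 4 passed the filter and 2 were below it in the first table, and 5 passed and 3 were below it in the second. SERPINA3, an inhibitor made by reactive astrocytes, differed by 1.63 ± 0.54 in the first experiment, with no overlap, and averaged -0.98 log2 CPM in both groups of the second. SERPINA1 differed by 0.57 ± 0.53 in the first (0.020 without Myc1 replicate 2) and 1.16 ± 0.41 in the second, and SOD2, a mitochondrial enzyme induced by NF-kB, by 0.46 ± 0.24 and 0.88 ± 0.25.

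In bulk tumours a smaller share of a cell type and less RNA per cell cannot be told apart, and how mouse reads were kept apart from human reads is not given. Vimentin (VIM), CD44 and fibronectin (FN1), which U87 cells express strongly, averaged 9.02 to 12.4 log2 CPM in the 4 groups. Of 12 markers of microglia and macrophages, 5 were analysed in the first table and 7 in the second, FCER1G was below 1 CPM in every library, and AIF1, CX3CR1, P2RY12, TYROBP and TREM2 were not analysed here. The markers analysed summed to 359 to 523 CPM in Myc1 and 299 to 424 CPM in Scr1. In the second experiment they summed to 247 to 317 CPM in Myc2 and 197 to 300 CPM in Scr2. Most of each sum was CD68, at 314 to 383 CPM in Myc1, 231 to 329 in Scr1, 166 to 259 in Myc2 and 156 to 251 in Scr2. Among markers below the filter in the second table, PTPRC, FCER1G and CD14 had lower means in Myc2, and LAPTM5 a higher mean. Of 9 astrocyte markers 7 were analysed in each table, and they summed to 351 to 481 CPM in Myc1, 175 to 416 CPM in Scr1, 215 to 913 CPM in Myc2 and 202 to 510 CPM in Scr2. The defining astrocyte gene GFAP averaged 0.89 log2 CPM in Myc1, 1.27 in Scr1 and 0.77 in each group of the second experiment. Other astrocyte markers had higher means in 1 or both experiments: SLC1A3, a glutamate transporter, differed by 1.09 ± 0.57 in the first and 1.03 ± 0.41 in the second (SE; limma adjusted p = 0.370; exact permutation p = 0.0794), ALDOC by 0.53 ± 0.43 and 0.83 ± 0.49, and GJA1 by 0.37 ± 0.33 and 0.60 ± 0.42. SLC4A4 differed by 2.15 ± 0.66 in the first experiment and by -0.023 ± 0.86 in the second. In the first it was near the floor, at 1.10 to 2.66 CPM in Myc1 and 0.154 to 0.794 CPM in Scr1. It passed the filter there through Myc1 alone, so its lack of overlap followed from the filter. SLC1A2 differed by 0.61 ± 0.32 and -0.013 ± 0.45, and ALDH1L1 was below the filter. Of 9 endothelial markers, 5 were analysed in the first table and 6 in the second. They summed to 9.98 to 25.5 CPM in Myc1 and 3.49 to 9.12 CPM in Scr1, with no overlap. Most of the Myc1 sum was EMCN, at 6.72 to 22.2 CPM against 1.25 to 5.20 CPM in Scr1. KDR and ERG also had higher means in Myc1, while VWF and TEK had lower means (log2 differences -0.47 and -0.13). VWF, TEK and ERG were below the filter in the first table. In the second experiment the markers summed to 8.28 to 23.0 CPM in Myc2 and 5.57 to 12.9 CPM in Scr2. Of the 5 above the filter there, 4 had higher means in Myc2 and 1, EMCN, a lower mean (-0.35 ± 1.25). CDH5 differed by 2.28 ± 0.91 (SE; limma adjusted p = 0.370; exact permutation p = 0.0873), at 0.711 to 6.49 CPM in Myc2 and 0.116 to 2.55 CPM in Scr2. KDR differed by 0.49 ± 0.40, TEK by 0.34 ± 0.53 and VWF by 0.031 ± 0.45. PECAM1, CLDN5 and FLT1 were not analysed here, and ERG was below 1 CPM in every library. The part of these cells in the complement differences was not tested. Markers of neurons (13.8 to 26.8 CPM in all 4 groups) and oligodendrocytes (106 to 197 CPM) overlapped between the groups of each experiment.

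**Figure D5:**
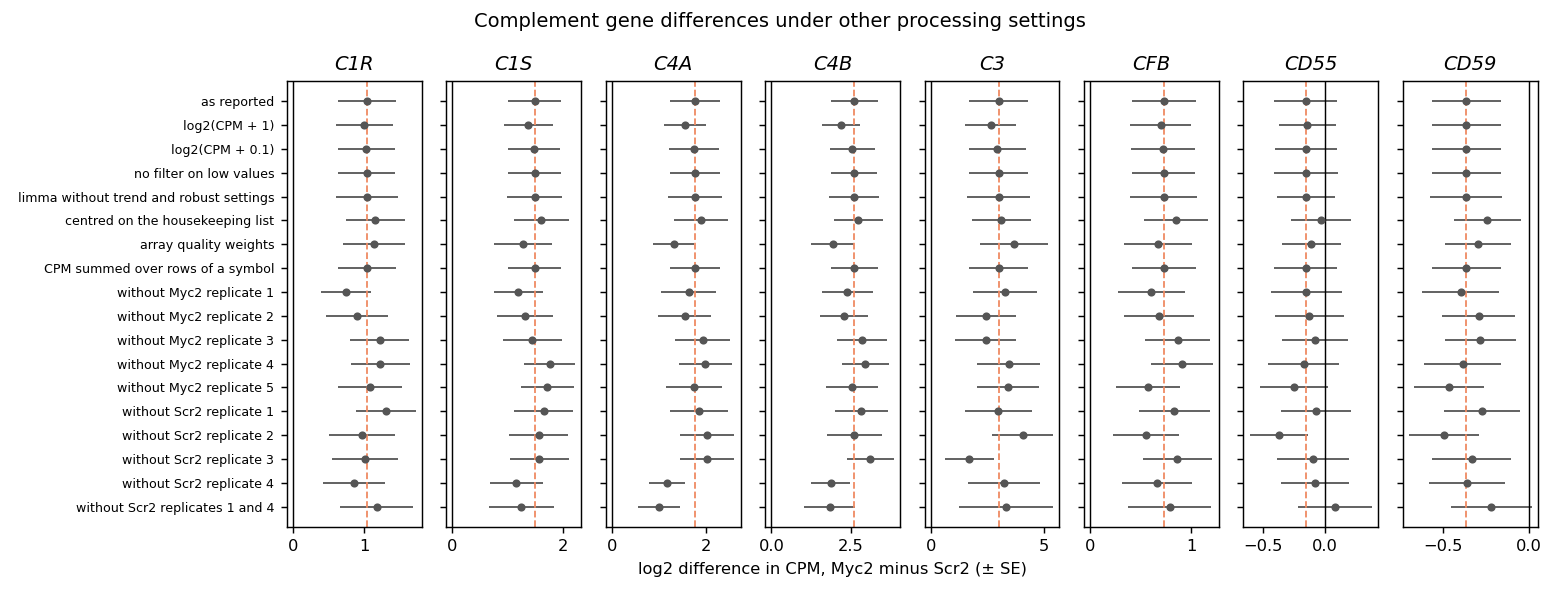
Log2 difference in CPM ± SE, Myc2 minus Scr2, of each member above the filter (panels) as reported and under each other setting (rows); the dashed line marks the reported value and the solid line marks 0. The 6 components stay above 0 in every row, the lowest value being 0.55 for CFB without Scr2 replicate 2, and C4A reaches its own lowest, 0.99, without Scr2 replicates 1 and 4.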

How the data were processed

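Per the labels' protocols, RNA of at least integrity number 7.2 was sequenced on an Illumina NextSeq. The submitters' processing notes name bcl2fastq 2.20.0, STAR 2.6.0b and Picard, and builds hg19 and mm10 without a role. Counting tool and annotation: not given in these sources. The authors deposited log2 CPM for each experiment, in 1 table each. Taken back from log2, each library sums to 995054 to 998392, and sorted values of different libraries nearly coincide (median spread 0.0089 and 0.0052 log2 units), so the values had been quantile-normalized, which hides a shift shared by most genes. Library sizes were estimated from the spacing of the lowest values.

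Limma 3.58.1 in R 4.3.3 (trend and robust settings) was run on the deposited log2 values of each table, for genes with at least 1 CPM in 3 libraries (first experiment) or 4 (second), 13933 and 14208 genes. P-values were adjusted by the Benjamini-Hochberg method over all of them, at a threshold of 0.05. Permutation tests were exact and two-sided, over all arrangements of the 9 libraries of the second experiment. The test script was tested on simulated data. Replicates are numbered in accession order, each from its own mouse. For a repeated symbol the row with the highest mean was used.

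The members, gene lists and tests were chosen with earlier results of these data known. Genes outside the members were named where a listed gene differed by at least 1 log2 unit in either experiment or had an unadjusted p under 0.05 in the second, where a listed complement gene passed the filter in both tables, and for the 6 genes most like C3. Alternatives were other pseudocounts, no filter, plain limma, centring on 26 housekeeping genes, array weights, summed rows and leaving out libraries. 1 listed gene is not reported here and was left out of the list counts.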

Additional observations from a re-analysis of the deposited data

Results flagged for a closer look

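In groups of 4 or 5 libraries, 8 values lay far from the rest of their group by Dixon's gap ratio, among 149 groups of named genes examined. Chance flags about 1 group in 20. CD55, a member, was at 2.48 log2 CPM in Scr2 replicate 2, where the other 3 Scr2 libraries lay between 3.32 and 3.38. In the same library ITGAX was high, at 3.31 log2 CPM, and NFKB2 high, at 5.63. NFKB2 was also high in Myc2 replicate 2, at 6.76, and CFI was low in Myc2 replicate 3, at 1.41. In Scr1 replicate 4 TYK2 was high, at 7.64, and BCL3 high, at 5.22. MASP2 was low, at -2.54, in Scr1 replicate 3, the shallowest library. Groups of 3 libraries were not examined, so none of these flags is in Myc1.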

How the results depend on the processing

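In the first experiment the 8 members above the filter stayed higher in Myc1 under all 14 alternatives. In the second the 6 components stayed higher in the libraries labelled Myc2 under all 17 alternatives (lowest log2 difference 0.55, for CFB without Scr2 replicate 2), and no member passed the adjusted threshold under any (smallest adjusted p = 0.108). Members at an unadjusted p under 0.05 numbered 3 to 6 with 1 library left out (CD59, lower, among them without Myc2 replicate 5 and without Scr2 replicate 2), 5 with array weights and 4 (C1S, C1R, C4A and C4B) with limma without trend and robust settings. Without Scr2 replicates 1 and 4 they numbered 2, genes called 2, genes at an unadjusted p under 0.05 509, and genes without overlap 7.75%. Array weights gave 1098 genes at an unadjusted p under 0.05. With 1 library left out, genes called ran from 0 to 2 in the first experiment and from 0 to 9 in the second, genes at an unadjusted p under 0.05 from 181 to 955 and from 719 to 3928, and genes without overlap from 5.77% to 12.8% and from 3.5% to 11.1%. Without overlap in either direction were 4.21% and 3.01% with all libraries, and smaller groups overlap less often by construction. Centring on housekeeping genes moved the median of all genes by 0.12 log2 units in the second experiment.

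In the first experiment, which was not tested, 14 named genes outside the members changed direction with 1 library left out. In the second, log2 differences changed direction as follows. Without Scr2 replicates 1 and 4 they were CD55 at 0.079, MASP2 at -0.070, C5 at -0.014, CSMD3 at 0.083, C3AR1 at 0.21, C1QBP at 0.14 and SERPINA3 at 1.90. With array weights they were CSMD3 at 0.36, C3AR1 at 0.051 and SERPINA3 at 1.23. C2 was 0.048 with log2(CPM + 1) and 0.069 with housekeeping centring. SERPINA3 was 0.198 with log2(CPM + 1), 0.199 with log2(CPM + 0.1) and 0.12 with housekeeping centring. With 1 library left out, C2 ran from -0.53 to 0.16, C5 from -0.017 to 0.48, PROS1 from -0.057 to 0.45, CSMD3 from -0.64 to 0.29, C5AR1 from -0.038 to 0.58, C1QBP from -0.32 to 0.010, CALB2 from -0.40 to 1.80 and SERPINA3 from -0.71 to 1.00. The cause was not tested. No paired analysis was possible because the labels give no replicate numbers shared between groups. The shallow Scr1 replicate 3 and Scr2 replicate 4 limit the precision of genes near 1 CPM, such as SERPING1.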
